A study of Mus musculus with 5 samples.

Results

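Glycolysis, the pentose phosphate pathway and the tricarboxylic acid (TCA) cycle were read through 39 genes, chosen by name, in the transcriptomes of sorted mouse haematopoietic stem and progenitor cells (HSPCs). All 39 were among the 11352 listed genes: 16 of glycolysis, 19 of the pyruvate dehydrogenase step and the TCA cycle, and 4 of the pentose phosphate pathway. Lineage-negative, KIT-positive, SCA1-positive, CD135-negative cells had been sorted from mice of 2 groups. The Cux1-low group (2 libraries) carried a knockdown of Cux1, the gene of a homeodomain transcription factor known as a myeloid tumour suppressor. The Cux1-low;NrasG12D group (3 libraries, called NrasG12D from here on) carried the same knockdown together with an allele for the oncogenic G12D form of the small GTPase NRAS. All mice had been given pI:C, a synthetic double-stranded RNA, and doxycycline over 4 weeks. The comparison therefore asks what the Nras allele adds where Cux1 is already knocked down. The driver of the Nras allele, the strain, the age of the mice and the number of animals behind a library are not given in the sources used here. P-values thus measure the spread between these libraries, part of which may be technical.

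Glycolysis splits glucose into pyruvate in the cytosol, with net gain of ATP and NADH, and lactate dehydrogenase can return pyruvate to lactate. The pyruvate dehydrogenase complex carries pyruvate into the mitochondrial TCA cycle, and its kinases switch it off. The pentose phosphate pathway branches off at glucose 6-phosphate and yields NADPH and ribose for nucleotides. Quiescent haematopoietic stem cells are known for leaning on glycolysis with pyruvate dehydrogenase kept low by its kinases, and for a greater use of mitochondrial oxidation when they divide and differentiate.

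The libraries held 16489711 to 20262498 reads over the listed genes, and 1 read was worth 0.0481 to 0.0608 normalized CPM (a per-million scale, adjusted by the authors for library composition). The level of Cux1 was 306 and 281 normalized CPM without the Nras allele and 311, 279 and 307 with it, and that of Nras 144 and 115 against 126, 124 and 113 (limma adjusted p = 0.883 and 0.642). Both groups carry the knockdown, and total mRNA does not separate the Nras alleles, so these levels check neither label. The third NrasG12D library stood apart from the other NrasG12D libraries. On the first principal component (73.8% of the variance) it lay at -4.16, with the other NrasG12D libraries at 29.1 and 38.0 and the Cux1-low libraries at -32.8 and -30.1. Counts of called pathway genes are therefore also given without it. Of the sort gate genes, Kit was at 1359 and 1373 normalized CPM against 477, 569 and 816. Ly6a, which encodes SCA1, was at 44.7 and 48.7 against 24.2, 14.2 and 37.7, and Flt3, which encodes CD135, was at 326 and 388 against 196, 165 and 230 despite the sort against CD135.

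Other marker lists were summed in the same libraries. All 12 proliferation genes had a positive log2 fold change, and their summed level was 3347 to 3633 normalized CPM in Cux1-low and 4208 to 5815 in NrasG12D. All 12 listed erythroid genes were positive as well (summed level 5034 to 5528 against 6276 to 12540), while the 5 globin genes of that list were not among the listed genes. All 11 listed stem cell markers were negative (1458 to 1495 against 383 to 877). The genes that passed, with 5 libraries and then without the third NrasG12D library, were 0 and 12 of 12 for proliferation (as higher), 0 and 11 of 12 for the erythroid list (as higher) and 1 and 10 of 11 for the stem cell list (as lower), where 1.13% and 37.4% of all genes passed. The B cell list summed to 172 and 244 against 486, 897 and 137 with 9 of 11 genes listed, the granulocyte and monocyte list to 7742 and 10862 against 19784, 13217 and 8387 with 8 of 10, and the megakaryocyte and platelet list to 753 and 740 against 527, 444 and 799 with 6 of 6. Positive log2 fold changes were found for 9 of 9, 7 of 8 and 0 of 6 listed genes, beside 49.7% of all genes. The medians were 2.37, 0.42 and -0.46. No gene of these lists passed with 5 libraries. Without the third NrasG12D library 9 of 9 and 5 of 8 passed as higher and 3 of 6 as lower. Of 9 genes of mature lineages removed by the sort, 3 were listed, with a sum of 33 and 57 against 50, 86 and 29. Of these 3, 2 were positive and 1 negative, and none passed with 5 libraries. Without the third NrasG12D library 1 passed as higher and 1 as lower. The T cell genes Cd3e, Cd3g, Cd4 and Cd8a were not among the listed genes. The part of proliferation and of cell type makeup in the results below was not tested. In such bulk samples fewer cells of a type and less RNA per cell cannot be told apart.

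Of the 39 genes, 1 passed the test, Ldhb, which fell (limma on log2(normalized CPM + 1), 3 against 2 libraries, Benjamini-Hochberg adjusted p under 0.05). Of all listed genes 1.13% passed, and 0.872% as lower. At an unadjusted p under 0.05, 15 of the 39 were counted, 11 higher and 4 lower, where 31.4% of all genes were, 14.8% higher and 16.5% lower. The groups did not overlap for 27 of the 39 (69.2%), 21 higher and 6 lower in NrasG12D, against 53.5% of all genes, 26.5% higher and 27.0% lower. Without the third NrasG12D library 16 of the 39 passed (41.0%), 13 higher and 3 lower, beside 37.4% of all genes, 18.0% higher and 19.4% lower. By the adjusted p of the authors' deposited table, 6 of the 39 were higher and 1 lower (17.9%), beside 16.1% of all genes, 6.97% higher and 9.14% lower. These shares are descriptions, and no test compared the 39 genes with the rest. The 3 pathways differed in their counts, and are described apart.

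**Figure D1:**
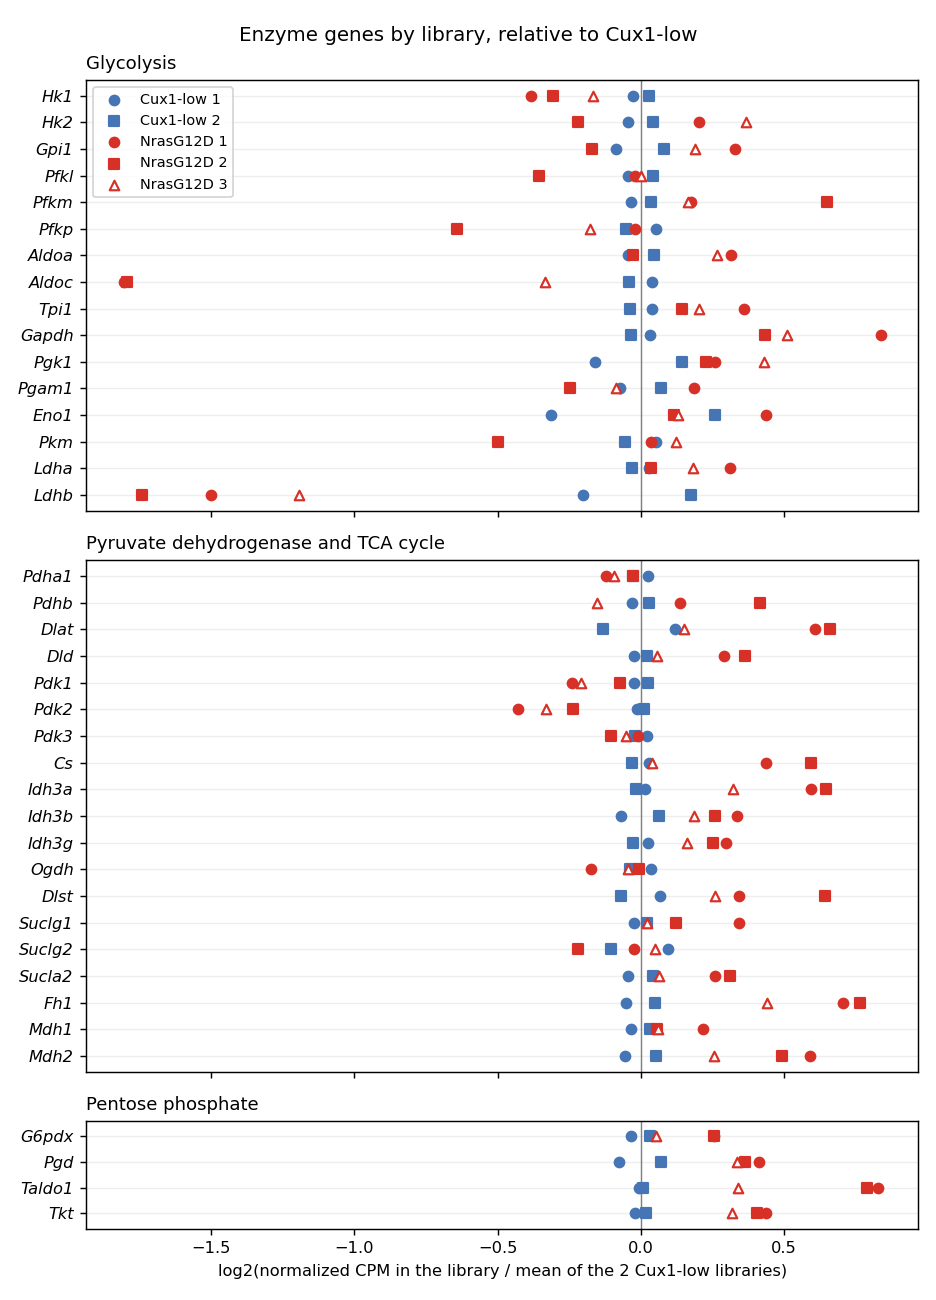
Level of each of the 39 genes in each library, as log2 of normalized CPM over the mean of the 2 Cux1-low libraries, in 3 panels by pathway (blue: Cux1-low, red: NrasG12D, open triangles: NrasG12D library 3). Ldhb lies far left in all 3 NrasG12D libraries, and all 4 pentose phosphate genes lie right of the Cux1-low points, with library 3 nearest to them.

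The 16 glycolysis genes gave no common direction, with 9 positive and 7 negative log2 fold changes and a median of 0.12 (0.00 over all genes). Ldhb passed the test, and without the third NrasG12D library Ldhb, Aldoc and Hk1 passed, all 3 as lower. Of all genes 37.4% passed without that library, 18.0% as higher and 19.4% as lower. The groups did not overlap for 8 of the 16, 5 higher and 3 lower, beside 53.5% of all genes, 26.5% higher and 27.0% lower. The sum over the 16 genes was 3801 and 3819 normalized CPM in Cux1-low and 4179, 3465 and 4088 in NrasG12D, so the groups overlapped in this sum.

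At the entry of the pathway, hexokinases phosphorylate glucose. Hk1 (chr10:62268855-62379908), the form of most tissues, measured 584 and 607 normalized CPM in Cux1-low and 457, 482 and 531 in NrasG12D. Every NrasG12D library lay below both Cux1-low libraries, with library 3 the nearest to them (log2 fold change -0.28, SE 0.11, limma adjusted p = 0.135, and 0.0239 without library 3). Hk2, the inducible form, was at 19.4 and 20.6 against 23.0, 17.2 and 25.8, and the groups overlapped. Per kb of its principal transcript, Hk2 was far below Hk1, at 3.13 to 4.68 normalized CPM per kb against 119 to 158. The phosphoglucose isomerase gene Gpi1 was at 289 and 325 against 386, 273 and 350, on either side of the Cux1-low values.

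Phosphofructokinase commits the sugar to glycolysis, and its 3 genes encode subunits of the same tetramer. Pfkl, the liver type, measured 327 and 348 normalized CPM in Cux1-low and 333, 264 and 338 in NrasG12D. Pfkp, the platelet type, was at 143 and 133 against 136, 88.4 and 122. Pfkm, the muscle type, was at 102 and 107 against 118, 164 and 117, higher in all 3 NrasG12D libraries, of which library 2 was highest (log2 fold change 0.33, SE 0.17, limma adjusted p = 0.221). In library 2 all 3 subunit genes departed from the other libraries: Pfkl and Pfkp had their lowest value there and Pfkm its highest. Per kb of transcript, Pfkm made up 22.4% and 22.9% of the 3 in Cux1-low, 25.1% and 25.2% in NrasG12D libraries 1 and 3, and 38.2% in library 2. Pfkp shares 17.1% of the 50-base stretches of its principal transcript with the gene Pitrm1, so its level is uncertain.

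Aldolases cleave the phosphorylated fructose. Aldoc, the form of brain, measured 11.4 and 10.8 normalized CPM in Cux1-low, 3.18 and 3.20 in NrasG12D libraries 1 and 2 and 8.81 in library 3. All 3 NrasG12D values were below both Cux1-low values, and the third lay close to them. Limma gave a log2 fold change of -1.12 (SE of 0.39, limma adjusted p = 0.117), and -1.53 without library 3 (limma adjusted p = 0.00248). Aldoa, the form of most cells, was at 416 and 443 against 534, 421 and 516, and the groups overlapped. Triose phosphate isomerase (Tpi1) was at 409 and 388 against 511, 440 and 459, higher in all 3 (log2 fold change 0.23, SE 0.11, limma adjusted p = 0.188).

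The 4 genes of the next steps were listed at very low levels. Gapdh, the dehydrogenase often used as a reference gene, measured 8.48 and 8.09 normalized CPM in Cux1-low and 14.8, 11.2 and 11.8 in NrasG12D (log2 fold change 0.54, SE 0.19, limma adjusted p = 0.118). Pgk1, phosphoglycerate kinase, was at 10.7 and 13.2 against 14.3, 14.0 and 16.1, and Pgam1, phosphoglycerate mutase, at 10.7 and 11.8 against 12.8, 9.47 and 10.6. The enolase gene Eno1 was at 1.52 and 2.26 against 2.56, 2.05 and 2.07, which came to 31 to 50 reads per library. Per kb of principal transcript these genes were at means of 7.66 (Gapdh), 7.49 (Pgk1), 6.25 (Pgam1) and 1.03 (Eno1), while their neighbours in the pathway Tpi1 and Pkm were at 275 and 213.

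Those 4 genes also shared the most sequence with other annotated genes. Of the 50-base stretches of the principal transcript, 82.5% for Gapdh, 72.2% for Eno1, 68.0% for Pgk1 and 41.5% for Pgam1 occurred in transcripts of other genes, among them 213 pseudogenes for Gapdh. Pkm (34.4%), Pdhb (30.3%), Ldhb (27.0%), Gpi1 (25.3%) and Suclg2 (21.8%) followed, and 21 of the 39 had no such stretch. Next came Ldha (17.1%, with 14 pseudogenes), Pfkp (17.1%), Pdha1 (16.9%), Aldoa (13.9%), Taldo1 (12.4%) and G6pdx (10.7%). The levels of these genes, Ldha and Taldo1 included, are uncertain to that extent. The rest were at 7.51% or less. Eno1b, an enolase copy that shares most with Eno1, was listed at 17.5 and 18.6 normalized CPM against 7.08, 4.91 and 18.9, above Eno1 itself in every library. How reads divide between a gene and its copies is uncertain, so the levels and group differences of Gapdh, Pgk1, Pgam1 and Eno1 are uncertain, and the part of shared sequence in their low levels was not tested.

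**Figure D2:**
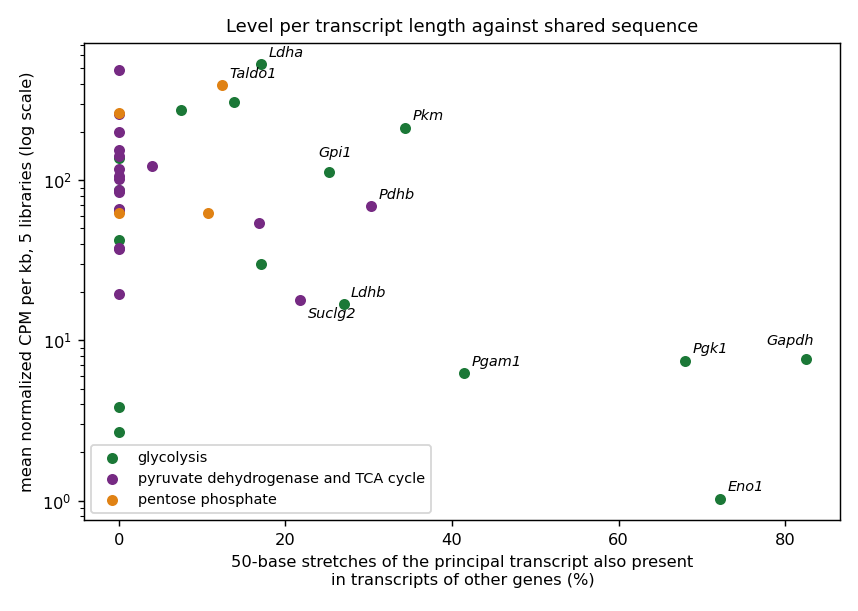
Mean level of each of the 39 genes per kb of principal transcript over the 5 libraries (vertical, log scale) against the percentage of its 50-base stretches also found in transcripts of other genes (horizontal), coloured by pathway. Gapdh, Eno1, Pgk1 and Pgam1 lie farthest right, at 41.5% and more, with 7.66 normalized CPM per kb or less, whereas Hk2 and Aldoc are low with 0% shared.

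Pyruvate kinase (Pkm), the last step, measured 557 and 517 normalized CPM in Cux1-low and 550, 380 and 585 in NrasG12D. Library 2 was low and the groups overlapped (log2 fold change -0.11, SE 0.19, limma adjusted p = 0.707). Its M1 and M2 splice forms cannot be told apart in a table of genes.

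Lactate dehydrogenase is a tetramer of A and B subunits, of which the A subunit is known for favouring lactate formation and the B subunit for favouring pyruvate. Ldhb (chr6:142490249-142507957, minus strand) measured 30.8 and 40.0 normalized CPM in Cux1-low and 12.5, 10.6 and 15.5 in NrasG12D. All 3 NrasG12D libraries lay below both Cux1-low libraries, and library 3 was on the side of libraries 1 and 2. The means were 35.4 ± 6.45 (SD, n = 2) and 12.9 ± 2.49 (SD, n = 3), 2.75-fold apart (log2 fold change -1.40, SE 0.21, limma adjusted p = 0.0430). Leaving out any library other than the third NrasG12D library ended the call, with limma adjusted p up to 0.365, while the log2 fold change stayed between -1.58 and -1.22. Without NrasG12D library 3 it was -1.53 (limma adjusted p = 0.00253). In the authors' deposited table Ldhb had a log2 fold change of -1.46 and an adjusted p of 1.26e-06. Of its 50-base stretches 27.0% also occur in the pseudogene Gm5514, so reads may divide between the copies.

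Ldha (chr7:46841475-46855627, plus strand) was at 880 and 845 normalized CPM against 1070, 885 and 978. Every NrasG12D library was above both Cux1-low libraries, library 2 only just (log2 fold change 0.18, SE 0.12, limma adjusted p = 0.345). Within a library, Ldha was 28.5-fold and 21.2-fold the level of Ldhb in Cux1-low and 85.5-fold, 83.9-fold and 63.1-fold in NrasG12D. Corrected for transcript length these ratios were 21.1 and 15.6 against 63.1, 61.9 and 46.6. The mean log2 ratio differed by 1.64 between the groups (exact 2-sided permutation test, p = 0.1, the smallest that 10 splits of 5 libraries allow, adjusted p = 0.32 over 8 ratios).

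The sequence before the start sites of 4 genes is shown because the results turn on them: Ldhb, which fell, its partner Ldha, and Taldo1 and Fh1, which had the largest positive log2 fold changes of their pathways. Each line gives 250 bases before the RefSeq start (GRCm38.p6), 5′ to 3′ on the gene's strand, and capitals mark GCGTG or its reverse complement, the only searched motif found in these 4 stretches. The stretches are chr6:142507958-142508207 on the minus strand for Ldhb, chr7:46846832-46847081 on the plus strand for Ldha, chr7:141391910-141392159 on the plus strand for Taldo1 and chr1:175625636-175625885 on the minus strand for Fh1 (the RefSeq start of Ldha lies inside the gene model given above).
Ldhb: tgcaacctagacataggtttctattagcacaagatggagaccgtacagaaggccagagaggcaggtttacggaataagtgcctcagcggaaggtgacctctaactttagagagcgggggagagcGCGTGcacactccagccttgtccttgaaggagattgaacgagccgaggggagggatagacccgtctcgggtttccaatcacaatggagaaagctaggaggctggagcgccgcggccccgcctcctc
Ldha: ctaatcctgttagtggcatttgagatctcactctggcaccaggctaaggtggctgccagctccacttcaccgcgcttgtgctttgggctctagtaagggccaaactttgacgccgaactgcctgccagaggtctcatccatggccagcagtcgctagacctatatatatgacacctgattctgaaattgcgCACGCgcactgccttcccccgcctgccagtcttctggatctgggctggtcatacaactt
Taldo1: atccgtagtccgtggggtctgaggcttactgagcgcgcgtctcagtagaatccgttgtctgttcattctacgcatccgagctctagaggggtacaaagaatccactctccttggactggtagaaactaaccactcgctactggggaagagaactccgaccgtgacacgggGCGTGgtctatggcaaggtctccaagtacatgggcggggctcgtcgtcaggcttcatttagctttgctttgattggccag
Fh1: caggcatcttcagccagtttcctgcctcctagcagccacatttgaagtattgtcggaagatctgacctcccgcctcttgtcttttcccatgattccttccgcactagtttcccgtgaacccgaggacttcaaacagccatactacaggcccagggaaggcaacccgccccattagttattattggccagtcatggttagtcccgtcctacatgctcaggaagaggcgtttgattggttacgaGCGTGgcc
The motifs searched on both strands were ACGTG and GCGTG, forms of the core that HIF1 binds, and the E-box CACGTG, which MYC proteins bind and which contains ACGTG. Windows of 300 bases (250 before and 50 from the start on) were found for 38 of the 39 genes (not Idh3a), and 1 window per gene was used. GCGTG occurred in 22 of 38 windows (57.9%), in 4 of 4 of the pentose phosphate genes in 9 of 16 of the glycolysis genes and in 9 of 18 of the pyruvate dehydrogenase and TCA cycle genes, against 53.4% of 8696 listed genes and 32.4% of all 32851 RefSeq windows. ACGTG occurred in 14 of 38 (36.8%), 7 of them in glycolysis, 6 in the pyruvate dehydrogenase and TCA cycle set and 1 in the pentose phosphate pathway, against 26.7% of the listed genes and 19.6% of all windows. The E-box occurred in 1 of 38 (2.63%), that of Pdk2, against 10.5% of the listed genes and 7.15% of all windows. Ldhb, which fell, and Taldo1 and Fh1, whose positive differences did not pass, each held GCGTG and none of the other motifs in the stretch shown.

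The ratio taken for Ldha and Ldhb was also taken for 7 other pairs of related enzymes. A ratio within a library does not depend on library scaling and shows unequal change only. The log2 ratio of Aldoc to Aldoa was 1.5 lower on average in NrasG12D, at -5.19 and -5.35 against -7.39, -7.04 and -5.87 (exact permutation p = 0.2). Hk2 to Hk1 was 0.40 higher, Pfkm to Pfkl 0.45 higher, Pdk1 to Pdk2 0.16 higher and Pdk3 to Pdk2 0.28 higher, each without overlap of the groups. Pfkp to Pfkl (-0.15) and Sucla2 to Suclg2 (0.27) overlapped. No ratio could pass in this design, and the adjusted p ran from 0.32 to 0.4 over the 8 exact permutation tests.

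**Figure D3:**
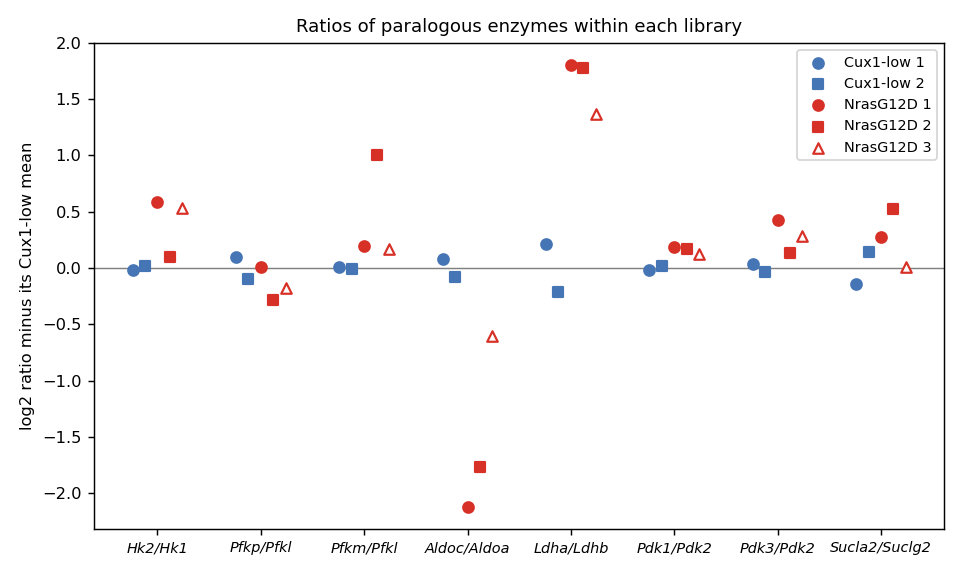
Log2 ratio of 8 pairs of related enzyme genes within each library, minus the mean of the 2 Cux1-low libraries (blue: Cux1-low, red: NrasG12D, open triangles: NrasG12D library 3). Ldha/Ldhb is higher in all 3 NrasG12D libraries by more than the distance between the Cux1-low libraries, and Aldoc/Aldoa is lower in all 3, with library 3 nearest to Cux1-low.

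At the mitochondrial entry, the 7 genes of the pyruvate dehydrogenase complex and its kinases were mixed, 3 positive and 4 negative (median -0.05), and none passed. Pdha1, the catalytic E1 alpha subunit that the kinases phosphorylate, measured 163 and 157 normalized CPM in Cux1-low and 147, 157 and 150 in NrasG12D, lower by less than the SE (log2 fold change -0.08, SE 0.10, limma adjusted p = 0.580). Pdhb, E1 beta, was at 95.4 and 99.4 against 107, 130 and 87.7, and overlapped. Dlat, the E2 acetyltransferase, was at 132 and 111 against 185, 192 and 135, so that library 3 lay just above the Cux1-low values (log2 fold change 0.48, SE 0.18, limma adjusted p = 0.125). Dld, the E3 subunit shared with the oxoglutarate complex, was at 195 and 201 against 242, 255 and 206. Without library 3, Dlat and Dld passed as higher (log2 fold changes 0.64 and 0.32, limma adjusted p = 0.00716 and 0.0287).

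The kinases that inhibit the complex had negative log2 fold changes, as had 5711 of the 11352 listed genes. Pdk2 was at 49.7 and 50.5 normalized CPM against 37.2, 42.5 and 39.8, below Cux1-low in every NrasG12D library and with library 3 within the range of the other NrasG12D libraries (log2 fold change -0.33, SE 0.12, limma adjusted p = 0.132). Pdk1, a target of the hypoxia-inducible factor HIF1, was at 208 and 215 against 179, 201 and 183, also without overlap (log2 fold change -0.17, SE 0.10, limma adjusted p = 0.277). Pdk3 was at 145 and 141 against 142, 133 and 138, with overlap (log2 fold change -0.05, SE 0.10, limma adjusted p = 0.713). None of the kinases passed, also without library 3 (limma adjusted p = 0.0771 for Pdk2, 0.247 for Pdk1 and 0.655 for Pdk3).

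Of the 12 TCA cycle enzymes 10 had positive log2 fold changes, and in all 10 every NrasG12D library lay above both Cux1-low libraries. The margin between the nearest libraries was small for Suclg1 (222 and 222), Cs (313 and 315), Sucla2 (137 and 139) and Mdh1 (414 and 421). Column sums were 971746 and 975326 in Cux1-low and 1026780, 1025724 and 1001820 in NrasG12D. Such margins thus depend on library scaling, and the separation was not counted at equal sums. None of the 12 passed the test over all genes (0.255% of all genes passed as higher). At an unadjusted p under 0.05, 6 were higher, and the median log2 fold change was 0.25. Without the third NrasG12D library 8 passed, all as higher. Of all genes 26.5% lay higher without overlap, 14.8% were higher at an unadjusted p under 0.05, and 18.0% passed as higher without library 3. Fh1, Idh3a and Mdh2 were higher at an adjusted p under 0.05 in the authors' deposited table, beside 6.97% of all genes. The summed level of the 12 genes was 3326 and 3343 normalized CPM in Cux1-low and 4246, 4276 and 3700 in NrasG12D, with library 3 between. The summed proliferation markers, whose part was not tested, were likewise lowest in library 3 among the NrasG12D libraries and above Cux1-low in all 3.

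Citrate synthase (Cs), which opens the cycle, measured 313 and 300 normalized CPM in Cux1-low, 415 and 463 in NrasG12D libraries 1 and 2 and 315 in library 3. The library 3 value was next to those of Cux1-low (log2 fold change 0.36, SE 0.17, limma adjusted p = 0.193, and 0.00833 without library 3). Idh3a (chr9:54586334-54604661), the catalytic subunit of the NAD-dependent isocitrate dehydrogenase, was at 272 and 266 against 406, 421 and 336, clear of Cux1-low in every library (log2 fold change 0.52, SE 0.13, limma adjusted p = 0.0756, and 0.0038 without library 3). Its partner subunits had smaller log2 fold changes: Idh3b was at 146 and 160 against 193, 183 and 174, and Idh3g at 317 and 306 against 383, 371 and 348 (log2 fold changes 0.26 and 0.24, limma adjusted p = 0.147 and 0.152, and 0.0497 and 0.0432 without library 3).

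The E1 and E2 subunit genes of the oxoglutarate dehydrogenase complex had opposite signs, and whether they differed in their change was not tested. Ogdh, the E1 subunit, was at 509 and 483 normalized CPM against 440, 494 and 481, with overlap (log2 fold change -0.07, SE 0.10, limma adjusted p = 0.638). Dlst, the E2 subunit, was at 246 and 224 against 298, 367 and 281, without overlap (log2 fold change 0.42, SE 0.14, limma adjusted p = 0.108, and 0.0218 without library 3). Of the succinyl-CoA ligase genes, Suclg1 was at 215 and 222 against 277, 238 and 222, Sucla2 at 129 and 137 against 159, 165 and 139, and Suclg2 at 66.4 and 57.8 against 61.1, 53.4 and 64.3. They had log2 fold changes of 0.16 for Suclg1 (alpha subunit), 0.21 for Sucla2 (ATP-forming beta subunit) and -0.06 for Suclg2 (GTP-forming beta subunit). Suclg2 was the only one of these 3 whose groups overlapped, and Sucla2 passed without library 3 (limma adjusted p = 0.0495).

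Fumarase (Fh1, chr1:175600374-175625635, minus strand) hydrates fumarate to malate. Its gene had the smallest p of the 19 genes of the pyruvate dehydrogenase step and the TCA cycle. It measured 160 and 172 normalized CPM in Cux1-low and 271, 282 and 225 in NrasG12D. The library 3 value was below libraries 1 and 2 and above both Cux1-low values. The means of 166 ± 8.68 (SD, n = 2) and 259 ± 30.2 (SD, n = 3) differed 1.56-fold (log2 fold change 0.64, SE 0.13, limma adjusted p = 0.0581). Without library 3 the log2 fold change came to 0.73 (limma adjusted p = 0.00284). Mdh2, the mitochondrial malate dehydrogenase, was at 559 and 602 against 874, 817 and 693 (log2 fold change 0.45, SE 0.13, limma adjusted p = 0.0894, and 0.00706 without library 3). Mdh1, its cytosolic counterpart, was at 395 and 414 against 470, 421 and 422 (log2 fold change 0.11, SE 0.10, limma adjusted p = 0.473). Mdh1 is counted among the 12 TCA cycle enzymes above. Whether Mdh1 and Mdh2 differed in their change was not tested.

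**Figure D4:**
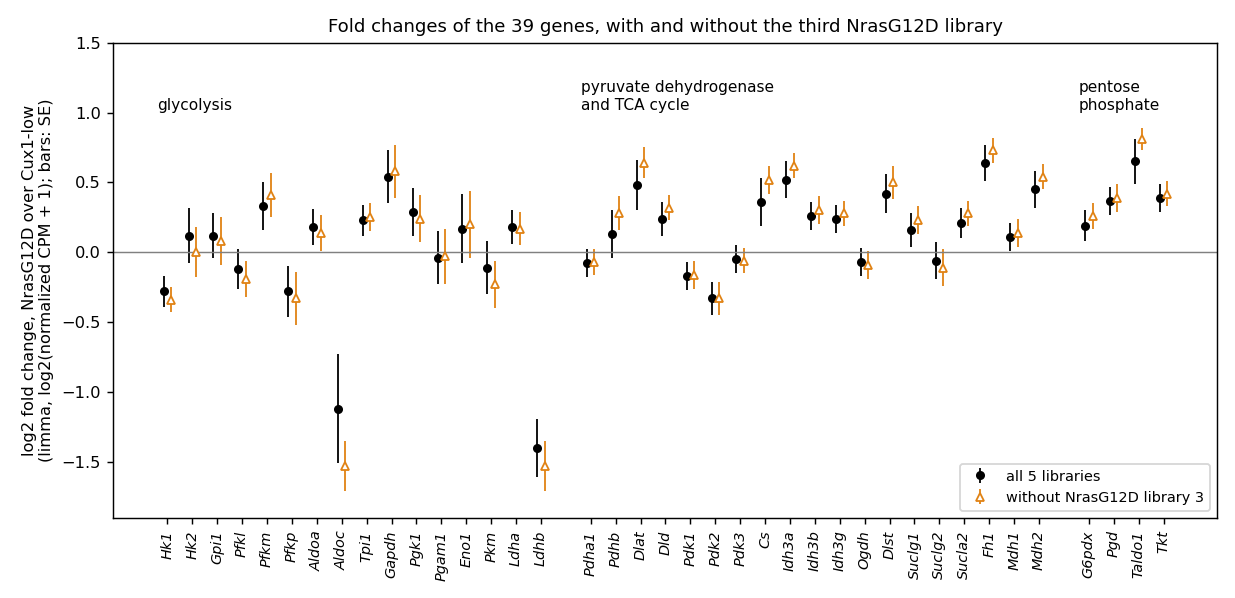
Log2 fold change of each of the 39 genes, NrasG12D over Cux1-low (limma on log2(normalized CPM + 1), bars: SE), with all 5 libraries (black) and without NrasG12D library 3 (orange triangles). Ldhb and Aldoc have the most negative values in both fits, at -1.40 and -1.12 and both at -1.53, and the orange values of most TCA cycle genes lie above the black ones.

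All 4 pentose phosphate genes were positive, and in all 4 every NrasG12D library was above both Cux1-low libraries. For G6pdx the margin was small (155 in Cux1-low library 2, 157 in NrasG12D library 3) and depends on library scaling. None of the 4 passed over all genes with 5 libraries, and 3 were higher at an unadjusted p under 0.05. The 3 genes Taldo1, Tkt and Pgd passed without library 3 and in the authors' deposited table. Of all genes 26.5% were higher without overlap and 14.8% at an unadjusted p under 0.05. Among all genes 18.0% passed as higher without library 3 and 6.97% in the authors' deposited table. The median log2 fold change was 0.38, and the sum of the 4 genes was 1313 and 1356 normalized CPM against 1931, 1887 and 1640. Taldo1 and Tkt are the non-oxidative enzymes, which shuffle carbons between sugars. Taldo1 (transaldolase, chr7:141392199-141402968) measured 353 and 356 normalized CPM in Cux1-low and 629, 613 and 448 in NrasG12D. Library 3 lay between the groups, and the means of 354 ± 2.81 (SD, n = 2) and 563 ± 100 (SD, n = 3) differed 1.59-fold (log2 fold change 0.65, SE 0.16, limma adjusted p = 0.0765, and 0.00197 without library 3). Tkt (transketolase, chr14:30548359-30574720) was at 701 and 720 against 963, 941 and 886, with library 3 near libraries 1 and 2 (log2 fold change 0.39, SE 0.10, limma adjusted p = 0.0815, and 0.0118 without library 3).

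The oxidative enzymes, which form NADPH, were also higher in every NrasG12D library. Pgd (6-phosphogluconate dehydrogenase, chr4:149149991-149166771) measured 112 and 124 normalized CPM in Cux1-low and 157, 152 and 149 in NrasG12D (log2 fold change 0.37, SE 0.10, limma adjusted p = 0.0828, and 0.0230 without library 3). G6pdx (glucose 6-phosphate dehydrogenase), which sets the pace of the pathway, was at 148 and 155 against 181, 181 and 157, so that library 3 was close to Cux1-low (log2 fold change 0.19, SE 0.11, limma adjusted p = 0.270). Its principal transcript shares 10.7% of 50-base stretches with other genes, most with the copy G6pd2.

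The other genes of these pathways were read from lists of companions. Among 21 listed genes of glycolysis and neighbouring reactions none passed, and the median log2 fold change was -0.03. At an unadjusted p under 0.05, 5 were higher and 4 lower, beside 31.4% of all genes. Without NrasG12D library 3, 9 of the 21 passed (5 higher, 4 lower), beside 37.4% of all genes. Fbp1, fructose bisphosphatase of gluconeogenesis, was at 19.6 and 17.3 normalized CPM against 43.8, 32.1 and 60.7, highest in library 3 (log2 fold change 1.22, SE 0.26, limma adjusted p = 0.0621). Adpgk, an ADP-dependent glucokinase, was at 51.2 and 52.3 against 75.2, 74.3 and 69.6 (limma adjusted p = 0.068). Ldhd, the D-lactate dehydrogenase of mitochondria, was at 4.8 and 5.05 against 1.54, 2.45 and 2.37 (limma adjusted p = 0.079). Minpp1, an inositol polyphosphate phosphatase, was at 278 and 316 against 496, 670 and 369 (limma adjusted p = 0.0984). Without library 3 Fbp1, Adpgk and Minpp1 passed as higher and Ldhd as lower (limma adjusted p = 0.00824, 0.0101, 0.00547 and 0.0179).

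Of 8 listed carriers none passed. At an unadjusted p under 0.05 there were 3 higher and 1 lower, beside 31.4% of all genes. Without NrasG12D library 3, 6 of the 8 passed (3 higher, 3 lower), beside 37.4% of all genes. The glucose transporter gene Slc2a3 measured 176 and 149 normalized CPM in Cux1-low and 90.5, 100 and 140 in NrasG12D, lower in every library (log2 fold change -0.58, SE 0.19, limma adjusted p = 0.111). Slc16a1, the monocarboxylate transporter MCT1, was at 239 and 225 against 342, 453 and 275, and Bsg, the chaperone basigin that brings it to the membrane, at 400 and 410 against 639, 689 and 474 (limma adjusted p = 0.112 and 0.0949). Slc2a8, another sugar transporter gene, was at 27.1 and 27.0 against 47.1, 55.8 and 30.6 (limma adjusted p = 0.130). Slc2a3 was thus below both Cux1-low libraries in all 3 NrasG12D libraries, while Slc16a1, Bsg and Slc2a8 were above them in all 3. These 4 genes passed in those directions without library 3 (limma adjusted p = 0.00505, 0.00827, 0.00294 and 0.00461).

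Of 22 other genes of pyruvate entry and the TCA cycle none passed (median log2 fold change 0.18). At an unadjusted p under 0.05, 6 were higher and 0 lower, beside 14.8% and 16.5% of all genes. Without NrasG12D library 3, 10 of the 22 passed (45.5%), all as higher. Of all genes 37.4% passed there, 18.0% as higher. Pcx, pyruvate carboxylase, which refills the cycle with oxaloacetate, was at 15.7 and 17.3 normalized CPM against 35.9, 49.5 and 23.8 (log2 fold change 1.04, SE 0.29, limma adjusted p = 0.0838). Aco1, the cytosolic aconitase, was at 94.3 and 103 against 122, 136 and 115, and Sdhb, a subunit of succinate dehydrogenase, at 217 and 215 against 333, 304 and 240. Lias, which makes the lipoyl group of the E2 subunits, was at 55.3 and 56.2 against 73.3, 79.9 and 63.1. The log2 fold changes of Aco1, Sdhb and Lias were 0.33, 0.42 and 0.36 (limma adjusted p = 0.119, 0.120 and 0.129). Without library 3 Pcx, Aco1, Sdhb and Lias passed (limma adjusted p = 0.00395, 0.0323, 0.00609 and 0.0191). Pdk4 was not among the listed genes.

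Of 9 other pentose phosphate genes none passed. At an unadjusted p under 0.05, 2 were higher and 1 lower, beside 31.4% of all genes. Without NrasG12D library 3, 5 of the 9 passed (4 higher, 1 lower), beside 37.4% of all genes. H6pd, which runs the oxidative steps inside the endoplasmic reticulum, measured 83.4 and 101 normalized CPM in Cux1-low and 50.1, 42.1 and 55.6 in NrasG12D (log2 fold change -0.90, SE 0.16, limma adjusted p = 0.0511). Its sign was opposite to that of G6pdx and Pgd, whose products act in the cytosol. Rpia (ribose 5-phosphate isomerase) was at 4.31 and 4.57 against 10.6, 10.8 and 8.51, and Pgls (6-phosphogluconolactonase) at 167 and 186 against 290, 271 and 218 (limma adjusted p = 0.0573 and 0.0806). Rpe was at 58.9 and 60.7 against 78.3, 75.8 and 64.4 (limma adjusted p = 0.186). Without library 3 H6pd passed as lower and Rpia, Pgls and Rpe as higher (limma adjusted p = 0.00431, 0.00546, 0.00455 and 0.0328). With 5 libraries H6pd also passed after rescaling or centring of the libraries (limma adjusted p = 0.046 and 0.0492), and Rpia in limma without a variance trend (adjusted p = 0.0464). H6pd passed in only 4 of 14 alternatives and Rpia in 3 of 14. Rescaling also raised the count of all genes passing as lower from 99 to 182.

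Among 20 listed regulators none passed, with 3 higher and 3 lower at an unadjusted p under 0.05, beside 31.4% of all genes. Hif1a, the oxygen-regulated subunit of HIF1, was at 94.4 and 92.5 normalized CPM against 65.0, 68.2 and 80.4, below Cux1-low in all 3 libraries (log2 fold change -0.39, SE 0.13, limma adjusted p = 0.102). Stk11, which encodes the kinase LKB1, was at 58.2 and 57.6 against 85.9, 92.0 and 82.6 (log2 fold change 0.57, SE 0.11, limma adjusted p = 0.0549). Mycn, also on the stem cell list, was at 121 and 112 against 31.0, 29.2 and 75.3, and Max, the partner of MYC proteins, at 69.3 and 84.2 against 104, 104 and 102 (limma adjusted p = 0.0792 and 0.0838). Without library 3, Stk11 and Max passed as higher and Mycn and Hif1a as lower (limma adjusted p = 0.00653, 0.0297, 0.000812 and 0.0117). Only these 4 of the 20 regulators passed there, a smaller share than the 37.4% of all genes.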

How the data were processed

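RNA-seq of polyA RNA from 5 HSPC libraries was analysed from 1 deposited table. Per the submitters' processing notes, TopHat, HTSeq and edgeR and the builds hg19 and mm10 were named, without versions or roles. The authors' deposited values are signal values headed CPM, with column sums from 971746 to 1026780, so totals were not fixed at 1000000. All 11352 listed genes exceed 1 in at least 3 libraries, so a gene above 1 only in Cux1-low cannot be listed. Every value was a whole multiple of the value of 1 read (tolerance 0.02 reads), but the values are normalized and no count test was run. The deposited table also holds the authors' log2 fold change, likelihood ratio score, p-value and adjusted p-value.

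Differences were tested with limma 3.58.1 (R 4.3.3, variance trend) on log2(normalized CPM + 1), which understates changes of low genes, over all listed genes reaching 1 in 2 or more libraries (0 removed). The test was tried on simulated data with noise of equal size in every library and no library set apart. Its behaviour with a library like the third NrasG12D library was not tried. Replicate numbers are shared between groups without a stated meaning, so no block was used. Values after ± are SDs. Alternatives changed the pseudocount, filter, scaling, variance model, block and libraries. Members, lists and motifs were chosen with earlier results of these data known. By rule, values by library are given for members past the threshold, for enzymes of committed or branching steps, for the 3 members of a pathway with the smallest p, for members without overlap of at least 0.5 in log2 fold change, and for up to 4 genes with the smallest p of each other list of pathway genes. Marker lists are given as sums and counts. Those of the other members and of Eno1b were added after their values were seen.

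Gene models and lengths (principal transcripts) are those of GENCODE M21 (mm10), to which 10941 listed symbols matched. Promoters are RefSeq's (GRCm38.p6). No source used here gives the strand setting of the counting, so overlapping and antisense genes are uncertain. A marker gene of the lists is not reported here by name. Libraries of a group differed beyond sampling noise. Python 3.11.15, pandas 2.3.3, numpy 2.4.6, scipy 1.17.1 and matplotlib 3.10.9 were used.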

Additional observations from a re-analysis of the deposited data

How the results depend on the processing

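For all genes, NrasG12D against Cux1-low, the count passing was 128 and moved to 213 (31 higher, 182 lower, against 29 and 99) with libraries rescaled to a sum of 1000000, which shifted the median of all genes by -0.06. With the replicate block it was 4163, and leaving out single libraries gave 3 to 4243. For glycolysis the count of 1 became 5 with the replicate block and 0 to 3 with single libraries left out. The counts of 0 for the pyruvate dehydrogenase and TCA cycle genes and for the pentose phosphate genes became 6 and 3 with the replicate block, which absorbs NrasG12D library 3, and 0 to 10 and 0 to 3 with single libraries left out, the upper values without NrasG12D library 3. Nothing says that equal numbers mark pairs: the deviations of Cux1-low 1 and NrasG12D 1 correlated at -0.192 and those of Cux1-low 2 and NrasG12D 2 at -0.00354. Ldhb passed in 10 of 14 alternatives. Under other pseudocounts, filters, scalings and variance models none of the 39 genes changed its call or sign, and Eno1 was not tested with a filter of 5. The sign of Hk2 was lost with the replicate block (0.00). With single libraries left out signs changed for Hk2 (0.00 to 0.27), Pgam1 (-0.15 to 0.05), Eno1 (-0.02 to 0.35), Pkm (-0.23 to 0.08), Pdhb (-0.01 to 0.28), Suclg2 (-0.16 to 0.04), Cux1 (-0.04 to 0.09) and Nras (-0.25 to 0.07), and that of Cux1 also with rescaling (-0.04). The median of the pentose phosphate genes was 0.32 with rescaling. All 8 paralogue ratios kept their direction under every alternative run. The edgeR test on recovered reads was not run. Leaving out a Cux1-low library leaves an arm of 1, assumed to vary like the other group.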
